A study of Mus musculus with 6 samples.

Results

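The 8 small structured noncoding RNA genes Rpph1, Rmrp, Rny1, Rny3, Rn7sk, Terc, Gm26244 and Gm22513 were followed among the 33006 genes counted in endothelial cells cultured from the lungs of C57BL/6 mice (primary cells, not a cell line). They were found by gene symbol in each count table, and were chosen by their raw counts in H2O2 against control libraries, library by library, so their differences between the groups are given as a description with no test. Cells at 80% confluence received 300 uM H2O2, an oxidant, or water as the control for 6 hours, and libraries were made with an mRNA kit from 100 ng of total RNA. Each group held 3 libraries, and nothing in the labels says that these came from separate cultures or animals, so p-values measure only the spread between libraries, which may be technical.

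The 8 genes encode RNAs that act without being translated. Rpph1 is the catalytic RNA of RNase P, the ribozyme that trims the leader of transfer RNA precursors, and Rmrp is the RNA of the related RNase MRP, which cuts ribosomal RNA precursors. Rny1 and Rny3 are Y RNAs, short stem-and-loop RNAs bound by the Ro60 and La proteins. Rn7sk is the 7SK RNA, the scaffold that holds the kinase P-TEFb in an inactive particle and so restrains transcription elongation. Terc carries the template of telomerase. Gm26244 and Gm22513 are annotated as small nuclear RNA (snRNA) genes and have no name beyond that. Most RNAs of these kinds carry no poly(A) tail, so an mRNA library is not designed to capture them, and the counts need not follow their amount in the cell.

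By sequence, Gm26244 and Gm22513 were near copies of Rnu1a1, a gene of the U1 snRNA, whose first bases pair with the 5′ splice site. Each was 164 bases long and matched Rnu1a1 at 163 of 164 positions, and the pair matched each other at 162 of 164. Gm22513 lies at chr12:54696782-54696945 on the plus strand. Counted from 1 at the first base of the RNA, Gm22513 differed from Rnu1a1 by T60C. Gm22513 is printed to show the letters ACTTACCT, in capitals, at positions 3 to 10, the same positions as in Rnu1a1. These letters occur on the RNA strand within the first 164 bases of 0.162% of 135350 annotated transcripts of at least that length. All sequences and positions are from GENCODE M21 on GRCm38, the assembly of the mm10 build that the submitters name, and are written as DNA from 5′ to 3′.
Gm22513: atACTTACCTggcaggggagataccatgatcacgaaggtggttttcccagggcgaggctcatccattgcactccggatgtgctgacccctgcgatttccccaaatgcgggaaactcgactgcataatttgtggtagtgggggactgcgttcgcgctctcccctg

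Rny1 and Rny3 are printed whole, because they are relatives and had like ratios between the groups. The capitals mark runs of 7 or more letters found in both. There were 5 such runs, and a global alignment had 81 identical letters over 112 columns, or 72.3%. Both genes lie on chromosome 6, with 6343 bases between them and on opposite strands, Rny1 at chr6:47788069-47788180 on the minus strand and Rny3 at chr6:47781624-47781725 on the plus strand, and both end in a run of 4 T.
Rny1: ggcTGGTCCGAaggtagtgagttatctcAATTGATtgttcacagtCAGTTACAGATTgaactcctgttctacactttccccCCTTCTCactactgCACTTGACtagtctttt
Rny3: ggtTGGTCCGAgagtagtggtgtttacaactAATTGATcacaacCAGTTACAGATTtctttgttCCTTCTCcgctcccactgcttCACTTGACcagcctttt

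Rpph1 is shown for its overlap with another gene. It lies at chr14:50807449-50807767 on the minus strand, and annotated exons of Ccnb1ip1, on the same strand, cover 233 of its 319 bases. The other 86 bases lie at its 2 ends, which are printed below with those bases in capitals. The annotation behind the counts is not given in the sources used here, and the part of this overlap in the counts of Rpph1 was not tested. Ccnb1ip1 itself had 0, 0 and 0 counts in the H2O2 libraries and 1, 0 and 0 in the controls.
Rpph1, bases 1 to 60: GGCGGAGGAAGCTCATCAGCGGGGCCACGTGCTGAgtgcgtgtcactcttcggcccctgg
Rpph1, bases 240 to 319: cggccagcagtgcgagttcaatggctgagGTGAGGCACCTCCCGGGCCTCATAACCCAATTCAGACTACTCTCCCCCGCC

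Rn7sk, the most abundant of the 8, is shown by its first 100 bases of 331, with GATC in capitals, the letters of the 5′ hairpin that the protein HEXIM1 is known to contact. GATC stood there 3 times, at positions 13 to 16, 42 to 45 and 64 to 67, and 0.323% of 139316 annotated transcripts of at least 100 bases hold it that often in their first 100. The gene lies at chr9:78175303-78175633 on the minus strand, and no annotated exon of another gene overlaps it.
Rn7sk: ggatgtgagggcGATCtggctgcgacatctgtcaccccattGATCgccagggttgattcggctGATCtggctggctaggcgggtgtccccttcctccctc

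The 6 libraries held 22455388 to 27618679 gene counts. The endothelial markers Pecam1, Cdh5, Kdr, Tek, Tie1, Erg and Emcn were all present, at 149 to 1209 CPM in every library (CPM are counts scaled to a common library size), and the lymphatic marker Lyve1 stood at 1830 to 1907 CPM, against at most 12.4 CPM for Prox1 and 0.292 CPM for Pdpn. Of the epithelial markers, Sftpc had 0 counts in all libraries, Cdh1 at most 2 and Epcam at most 4. Of the fibroblast and smooth muscle markers, Col1a1 had at most 6 counts, Acta2 0.493 to 1.01 CPM and Pdgfrb 1.39 to 1.96 CPM. The leukocyte markers Ptprc and Lyz2 had at most 1 count, and Cd68, which is also a lysosomal protein gene, had 157 to 169 CPM. In these bulk libraries, fewer cells of a type and less RNA per cell cannot be told apart. A reader of single libraries should know that H2O2 replicate 3 stood apart in Gm26924, an abundant feature, with 3616 CPM against 9834 and 11085 CPM in the other H2O2 libraries and 10094 to 11527 CPM in controls.

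Together the 8 genes had 68.0, 59.3 and 51.9 CPM, scaled here by total gene counts alone, in the H2O2 libraries, against 35.5, 33.8 and 34.5 in the controls. Every H2O2 library was deeper than every control (26042296 to 27618679 gene counts against 22455388 to 25626849), which raises raw counts with H2O2. For 6 of the 8, all H2O2 raw counts lay above all control raw counts, and the same 6 did so in CPM. This count describes how they were chosen. Across all 12924 tested genes, 16.5% had all H2O2 libraries above all controls in CPM, and the share in raw counts was not computed. 5 members passed the filter on low counts and were fitted, and 3 (Rny3, Rmrp and Terc) did not. Rny1 passed through its H2O2 libraries alone, where it had 12 or more counts, so its fitted value had to differ between the groups.

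Rpph1, the RNase P RNA, had 197, 185 and 233 counts in the H2O2 libraries, against 63, 58 and 64 in the controls. All H2O2 libraries were high, replicate 3 the highest of them, and no control came near. The scaled level was 7.60 ± 0.899 CPM with H2O2 and 2.55 ± 0.297 CPM in controls (SD, n = 3 each), a ratio of means of 2.98 and a fitted log2 fold change of 1.58 (SE 0.131). Without any 1 library the fitted log2 fold change stayed between 1.49 and 1.67.

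Rmrp, the RNA of the sister enzyme, was almost absent from the counts. It had 2, 3 and 2 counts with H2O2 and 1, 2 and 2 in controls, which is at or under 3 counts in every library, and no fold is given. The annotation holds 2 overlapping entries named Rmrp, at chr4:43492783-43493063 and chr4:43492788-43493058, and exons of Ccdc107 on the opposite strand cover 44.1% of its bases. The deposited tables set aside ambiguous reads in a class of their own, so reads that overlap more than 1 annotated gene may be missing from the counts of Rmrp and of Rpph1. How far this bears on the low count of Rmrp was not tested.

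Both Y RNAs were sparse and were higher in every H2O2 library than in any control. Rny1 had 19, 12 and 16 counts with H2O2, against 6, 2 and 4 in controls. Rny3 had 11, 7 and 9 counts with H2O2, against 2, 2 and 3 in controls. The ratio of summed counts, scaled for library size, was 3.52 for Rny1 and 3.47 for Rny3. For Rny3, with 3 counts or fewer in every control, the exact 95% counting interval of that ratio was 1.47 to 9.44; it covers counting error only and is no test, since these counts chose the members. Rny3 stood at 56.2 to 58.3 counts per 100 of Rny1 with H2O2 and 33.3 to 100.0 in controls. The fitted log2 fold change of Rny1 was 1.79 (SE 0.478).

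Rn7sk differed least between the groups among the fitted members. It had 1012, 990 and 696 counts with H2O2, against 626, 629 and 504 in controls. The H2O2 libraries split: replicates 1 and 2 stood well above the controls, and replicate 3, at 25.4 CPM, lay just above the highest control at 24.96 CPM. Its level was 33.4 ± 7.11 CPM with H2O2 and 24.1 ± 1.31 CPM in controls (SD, n = 3 each), and the fitted log2 fold change was 0.47 (SE 0.0938). Without H2O2 replicate 3 that value was 0.63 and without H2O2 replicate 1 it was 0.35. Replicate 3 was also the library with low Gm26924, and the part of that library's make-up in the low Rn7sk count was not tested. Rpph1 was highest in the same library.

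Of the near copies of Rnu1a1, Gm26244 had the more counts. Gm26244, which lies at chr18:10150977-10151140 on the minus strand within Rock1, had 410, 304 and 346 counts with H2O2, against 139, 141 and 138 in controls. The controls were nearly equal and all H2O2 libraries were more than 100 counts above them. The level was 13.1 ± 2.43 CPM with H2O2 and 5.75 ± 0.371 CPM in controls (SD, n = 3 each), with a fitted log2 fold change of 1.19 (SE 0.113). Gm22513 had 120, 136 and 108 counts with H2O2, against 48, 32 and 59 in controls, and a fitted log2 fold change of 1.23 (SE 0.182). Its controls were the more scattered group, and the fitted value ran from 0.99 without control replicate 2 to 1.503 without control replicate 3.

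Terc, the telomerase RNA gene at chr3:96414437-96414859 on the minus strand, had 1, 1 and 0 counts with H2O2 and 1, 0 and 0 in controls. At this depth no difference was detectable, and no fold is given.

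**Figure D1:**
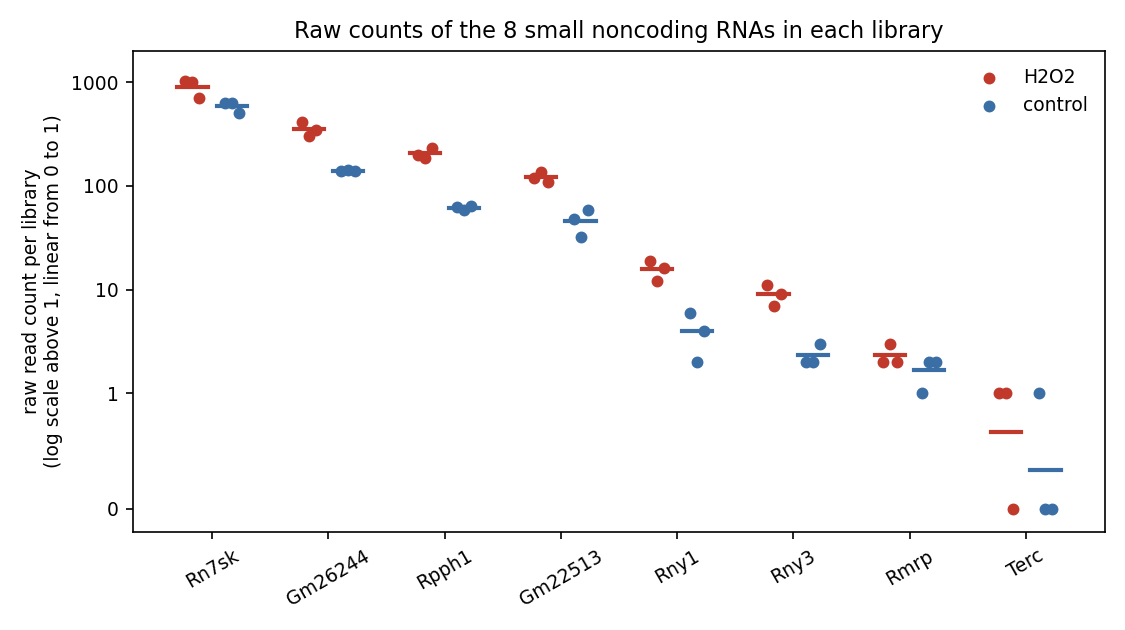
Raw read counts of the 8 genes in each library (vertical axis, log scale above 1 and linear below), with H2O2 libraries left of control libraries for each gene; points are libraries and short lines are means of 3. The 6 genes from Rn7sk to Rny3 have no overlap between groups, the closest being Rn7sk (696 against 629), while Rmrp and Terc lie at 3 counts or fewer. The members were chosen on these counts, and all H2O2 libraries are deeper than all controls. In CPM the closest libraries of Rn7sk are at 25.4 (H2O2) and 24.96 (control). Of all tested genes, 16.5% have all H2O2 libraries above all controls in CPM.

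The members differed in how far apart the groups stood. Rn7sk made up 49.4% to 60.4% of the counts of the 8 genes in H2O2 libraries and 65.1% to 72.6% in controls. Rpph1 stood at 18.7 to 33.5 counts per 100 of Rn7sk with H2O2 and at 9.22 to 12.7 in controls, ranges that did not overlap. Gm22513 per 100 of Gm26244 gave 29.3 to 44.7 with H2O2 and 22.7 to 42.8 in controls, which overlapped. In CPM per kilobase of transcript, a level per length, the order with H2O2 was Rn7sk (101), Gm26244 (80.2), Gm22513 (27.4), Rpph1 (23.8), Rny1 (5.21) and Rny3 (3.29), and in controls it was Rn7sk (72.8), Gm26244 (35.1), Gm22513 (11.8), Rpph1 (8.002), Rny1 (1.48) and Rny3 (0.957).

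The near copies of Rnu1a1 were looked at as a family found by sequence alone, a choice made after the counts were seen. Besides the 2 members, 31 snRNA genes matched Rnu1a1 at 90% of its bases or more, counting Rnu1a1 itself, and 6 of the others were identical to it. Identical copies cannot be told apart by reads that lie within the RNA, so the split of counts among them is uncertain, as are the counts of Gm26244 and Gm22513, which rest on reads that the aligner placed at 1 locus. Summed over the 31 genes, the counts were 151, 131 and 119 in the H2O2 libraries and 73, 59 and 57 in the controls. All H2O2 libraries again lay above all controls, as they did for 16.5% of all tested genes in CPM. The sums stood at 4.97 ± 0.760 CPM against 2.59 ± 0.299 CPM (SD, n = 3 each), and the ratio of summed counts was 1.91 (exact 95% interval 1.60 to 2.28, counting error only). Of these genes 19 had a count, 15 of them with a higher CPM with H2O2 and 4 with a lower one. Only Gm24924 and Gm23238 were abundant enough to be tested, and both rose, by 0.74 (SE 0.264, adjusted p = 0.048) and 0.87 (SE 0.278, adjusted p = 0.026) on the log2 scale by the quasi-likelihood test of edgeR, adjusted over all genes (Benjamini-Hochberg). Both calls were fragile. That of Gm24924 ended without H2O2 replicate 1, where the value was 0.39, with limma-voom (0.67) and with the replicate block (0.73), and without control replicate 1, 2 or 3 (0.64 to 0.80). That of Gm23238 ended without H2O2 replicate 1 (0.75) and without control replicate 2 (0.81) or 3 (0.74). Reads with more than 1 alignment, which these tables leave out of the gene counts, were 11.1% ± 0.0502 of counted reads with H2O2 and 11.6% ± 0.124 in controls.

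**Figure D2:**
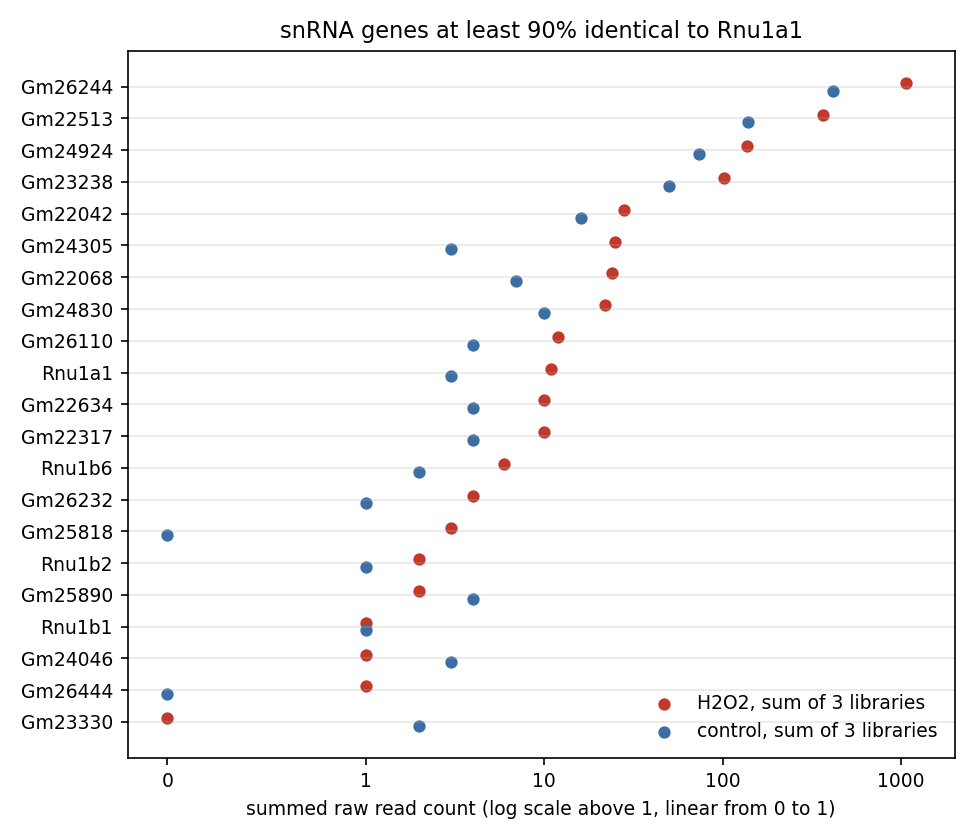
Summed raw counts of 3 libraries per group (horizontal axis, log scale above 1 and linear below), H2O2 drawn above control, for the snRNA genes with at least 1 count that match Rnu1a1 at 90% of bases or more. Most counts lie on Gm26244 and Gm22513 (1060 and 364 with H2O2, 418 and 139 in controls), and the next genes, Gm24924 and Gm23238, also have more counts with H2O2.

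Other small noncoding RNAs did not all move with the members. Of 3597 further genes of this kind in the tables, 745 had a count and 44 were tested, and 3 rose and 2 fell, where 9.7% of all tested genes were called higher and 10.8% lower. Their median log2 fold change was 0.13, against -0.0041 for all tested genes. The third gene that rose was Gm25939, an snRNA gene (0.61, SE 0.206, adjusted p = 0.034), a call that ended without any 1 library except H2O2 replicate 1 (0.54 to 0.66). The genes that fell were Gm23119 (-0.52, SE 0.139, adjusted p = 0.0077) and Gm22009 (-1.13, SE 0.326, adjusted p = 0.013), both annotated as scaRNA genes, whose RNAs guide modification of spliceosomal RNAs in Cajal bodies. The call of Gm23119 ended without H2O2 replicate 1 (-0.41) and that of Gm22009 without H2O2 replicate 3 (-0.72) or control replicate 3 (-0.95). Without control replicate 2 or 3, 0 of the list rose, without control replicate 1 it was 1, and without H2O2 replicate 1, 2 or 3 it was 2. The falls numbered 1 without H2O2 replicate 1 or 3 or control replicate 3. An unadjusted p under 0.05 was reached by 10 of the 44.

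By class, a split made after the values were seen, snRNA genes unlike Rnu1a1 summed to 18.5, 16.9 and 16.9 CPM with H2O2 and to 12.7, 13.3 and 12.9 CPM in controls. Small nucleolar RNA (snoRNA) genes summed to 39.3, 38.0 and 39.7 CPM with H2O2 and to 38.7, 32.6 and 33.8 CPM in controls. The scaRNA genes summed to 6.08, 6.63 and 5.99 CPM with H2O2 and to 9.25, 8.09 and 9.54 CPM in controls. The ratios of the means, H2O2 over control, were thus 1.34 for snRNA, 1.11 for snoRNA and 0.696 for scaRNA genes. The snRNA sums were apart and higher with H2O2, the scaRNA sums were apart and lower, and for snoRNA the lowest H2O2 library lay below the highest control. Most scaRNA counts came from the 2 genes named above as falling. Gm23119 had 71, 92 and 100 counts with H2O2 and 125, 104 and 111 in controls. Gm22009 had 24, 23 and 6 with H2O2 and 34, 30 and 41 in controls. The lower scaRNA sum is thus not separate from those 2 calls, and the sum without these genes was not computed. Of all tested genes taken singly, 16.5% had all H2O2 libraries above all controls in CPM and 18.2% had all of them below. Most snoRNA and scaRNA genes lie within introns of other genes, and the part of host transcripts in these sums was not tested. Among named RNAs of low count, picked after their values were seen, Rnu11, the U11 RNA of the minor spliceosome, had 21, 10 and 13 counts with H2O2 and 7, 4 and 9 in controls and did not pass (log2 fold change 0.97, adjusted p = 0.14 in the same edgeR test). The vault RNA gene Vaultrc5 had 5, 4 and 6 counts with H2O2 and 2, 1 and 2 in controls and was too sparse to be tested.

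Genes of proteins that bind, make or process such RNAs changed by small amounts in both directions, and more of them fell than rose. Of 102 tested genes in 6 lists of the particles and of their synthesis, 12 rose (11.8%, against 9.7% of all tested genes) and 23 fell (22.5%, against 10.8%), with a median log2 fold change of -0.039. The sizes of the changes that passed ran from 0.090 to 0.45 on the log2 scale. Values below are log2 fold changes, H2O2 over control, with adjusted p from edgeR's quasi-likelihood test over all genes.

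Of the 11 tested protein genes of RNase P and RNase MRP, 1 rose and 2 fell, with a median of -0.033. Pop5, a core subunit of both enzymes, rose to 15.2 ± 0.510 CPM with H2O2, against 11.3 ± 0.381 CPM in controls (SD, n = 3 each; 0.43, SE 0.0734, adjusted p = 1.1e-04). Pop1, the largest subunit, fell by 0.21 (SE 0.0584, adjusted p = 0.011) and Pop4 by 0.15 (SE 0.0434, adjusted p = 0.015). The calls of both falls rested on single libraries: Pop1 was not called without H2O2 replicate 1 (adjusted p = 0.087) or control replicate 3 (0.065), nor Pop4 without H2O2 replicate 2 (0.094) or control replicate 3 (0.052). Thus 0 fell without control replicate 3 and 1 without H2O2 replicate 1 or 2.

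Among 11 tested genes of Y RNA and La-type binding proteins, 1 rose and 1 fell (median -0.023). The cold-shock protein gene Ybx1 rose to 882 ± 28.1 CPM with H2O2, against 756 ± 22.8 CPM in controls (SD, n = 3 each; 0.22, SE 0.0294, adjusted p = 3.0e-06). Larp1, a La-related protein that binds messenger RNAs of the translation machinery, fell by 0.20 (SE 0.0275, adjusted p = 4.5e-06). Outside the naming rule, the genes of the main Y RNA partners stood at -0.016 for Trove2, which encodes Ro60, and -0.023 for Ssb, which encodes La, and neither passed (adjusted p = 0.88 and 0.68).

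In the 7SK and P-TEFb list, 1 of 15 rose and 4 fell (median -0.080). Larp7, which binds the 3′ end of 7SK, fell by 0.14 (SE 0.0408, adjusted p = 0.014), and Cdk9, the kinase that the particle holds back, by 0.12 (SE 0.0380, adjusted p = 0.022). The elongation factor gene Ell fell by 0.25 (SE 0.0653, adjusted p = 0.0061) and its partner Eaf1 by 0.26 (SE 0.0352, adjusted p = 4.5e-06), Eaf1 standing at 127 ± 6.31 CPM with H2O2 and 152 ± 0.0902 CPM in controls (SD, n = 3 each). The 1 gene that rose was Mllt3 (0.15, adjusted p = 0.034), named after its value was seen, and it was not called without H2O2 replicate 1 or 3 or control replicate 2 or 3. Larp7 lost its call without H2O2 replicate 2 (adjusted p = 0.12) or control replicate 2 (0.087), and Ell without control replicate 1 (0.087). Cdk9 lost it without H2O2 replicate 1 (0.070) or 2 (0.12), without control replicate 1 (0.064) or 2 (0.065), and by DESeq2's test (0.057). Falls numbered 2 without control replicate 1 or 2. Outside the naming rule, Hexim1 (-0.047) and the 7SK capping enzyme gene Mepce (-0.075) did not pass (adjusted p = 0.59 and 0.18).

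Of 16 tested genes of telomerase and shelterin, the complex that caps telomeres, 3 rose and 5 fell (median -0.040). Dkc1, the pseudouridine synthase that stabilises Terc and other H/ACA RNAs, fell to 125 ± 1.45 CPM with H2O2, against 145 ± 2.13 CPM in controls (SD, n = 3 each; -0.21, SE 0.0321, adjusted p = 1.9e-05). Its assembly factor Shq1 fell by 0.30 (SE 0.0666, adjusted p = 0.0017) and the telomerase-associated gene Tep1 by 0.20 (SE 0.0433, adjusted p = 0.0014). Nop10, a small protein of the same H/ACA particles, rose by 0.18 (SE 0.0507, adjusted p = 0.013), a call that ended without H2O2 replicate 1 (0.066) or control replicate 2 (0.13). Rises numbered 0 without H2O2 replicate 1 and 1 without H2O2 replicate 3 or control replicate 1, 2 or 3. Falls numbered 3 by DESeq2's test and without H2O2 replicate 3 or control replicate 3.

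RNA polymerase III makes Rpph1, Rmrp, the Y RNAs and 7SK, whereas U1 snRNA and Terc are made by RNA polymerase II. Of the 31 tested genes of the polymerase III machinery, 2 rose and 6 fell (median -0.034). Its largest subunit gene, Polr3a, fell to 45.2 ± 0.507 CPM with H2O2, against 53.2 ± 2.02 CPM in controls (SD, n = 3 each; -0.24, SE 0.0433, adjusted p = 2.3e-04), and Polr3c fell by 0.13 (SE 0.0371, adjusted p = 0.011). Gtf3a, the initiation factor of the 5S ribosomal RNA genes, rose to 15.99 ± 0.882 CPM with H2O2, against 11.7 ± 1.47 CPM in controls (0.45, SE 0.0825, adjusted p = 2.4e-04), and Polr1d, a subunit shared with polymerase I, rose by 0.14 (SE 0.0370, adjusted p = 0.0089). Falls numbered 3 without H2O2 replicate 1, where Polr3c was not called (adjusted p = 0.086), and without control replicate 2 or 3.

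In the list of small RNA 3′ end processing, 4 of 18 tested genes rose and 5 fell (median -0.014). The 4 that rose were among the 6 tested genes of the Lsm ring, which binds the 3′ end of U6 snRNA, a grouping made after the calls were seen. Lsm3 (0.027, adjusted p = 0.75) and Lsm6 (0.028, adjusted p = 0.74) did not pass, and Lsm5 and Lsm7 rose by 0.19 and 0.24. Lsm2 rose by 0.17 (SE 0.0418, adjusted p = 0.0049) and Lsm4 by 0.15 (SE 0.0377, adjusted p = 0.0055). Tut1, which adds uridines to U6, fell to 35.1 ± 0.425 CPM with H2O2, against 44.3 ± 0.338 CPM in controls (SD, n = 3 each; -0.34, SE 0.0451, adjusted p = 3.8e-06), and Exosc10, a nuclease of the nuclear exosome, fell by 0.15 (SE 0.0324, adjusted p = 0.0011). Falls numbered 2 without H2O2 replicate 1 or control replicate 2 and 3 without control replicate 3, with upper-quartile factors, by DESeq2's test and with no filter, and rises numbered 2 without control replicate 2.

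**Figure D3:**
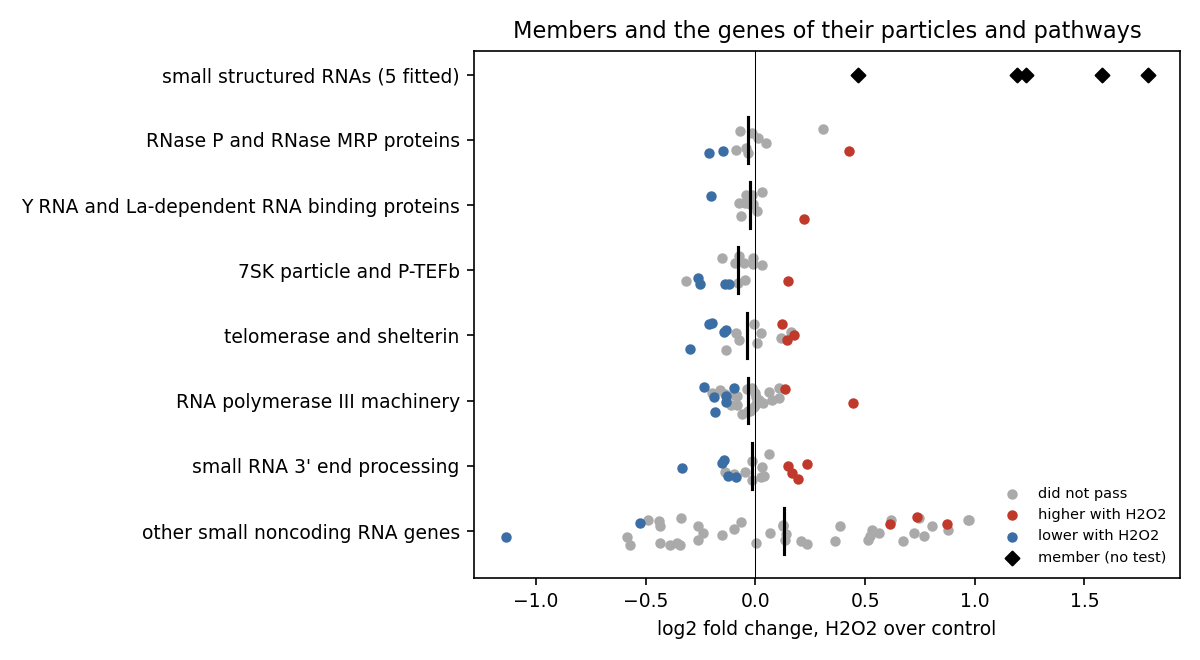
Log2 fold change, H2O2 over control (horizontal axis), of the 5 fitted members (diamonds, no test) and of each tested gene in the lists, coloured by whether it passed the test; black bars are list medians. The members, chosen on this contrast, lie between 0.47 and 1.79. The genes of the 6 protein lists that passed the test on the same contrast lie within 0.45 of 0. These lists were chosen with earlier results of these data known, so they are no independent comparison for the members.

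No tested gene next to a fitted member passed the test, but these genes were few. The nearest annotated genes on each side, members aside, and the genes that overlap a member came to 18. Of these, 12 were in the tables, 8 were tested and 1 passed, where 20.5% of all tested genes were called in either direction. With so few genes, the count cannot show whether neighbours differ from other genes. Parp2, a DNA repair enzyme gene that starts 73 bases from Rpph1 on the opposite strand, had 43.9 ± 1.58 CPM with H2O2 and 44.4 ± 0.623 CPM in controls (SD, n = 3 each; -0.016, adjusted p = 0.85). Rock1, which overlaps Gm26244 on the same strand with no shared exon base, stood at 127 ± 5.55 CPM with H2O2 and 127 ± 0.554 CPM in controls (0.0038, adjusted p = 0.96). The gene that passed was Ccdc107, which overlaps Rmrp, a member too sparse for a fold, on the opposite strand, with 13.7 ± 1.78 CPM with H2O2 and 10.4 ± 0.878 CPM in controls (0.40, adjusted p = 0.0022). Pdia4 beside Rny1 (-0.049), Ick (-0.039) and C920006O11Rik (0.32) beside Rn7sk, Eapp beside Gm22513 (0.10) and Arhgef39 beside Rmrp (-0.013) did not pass.

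Short transcripts as a whole lay slightly higher with H2O2. Among 380 other tested genes with a median transcript length under 500 bases the median log2 fold change was 0.044, with quartiles of -0.095 and 0.23, and 15.5% were called higher and 9.21% lower. For 812 genes of 4000 bases or more, the median was -0.018, with 6.65% called higher and 12.8% lower. The fitted members, whose high values the choice of members fixed, stood at 0.47 to 1.79, and the part of transcript length in their values was not tested.

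**Figure D4:**
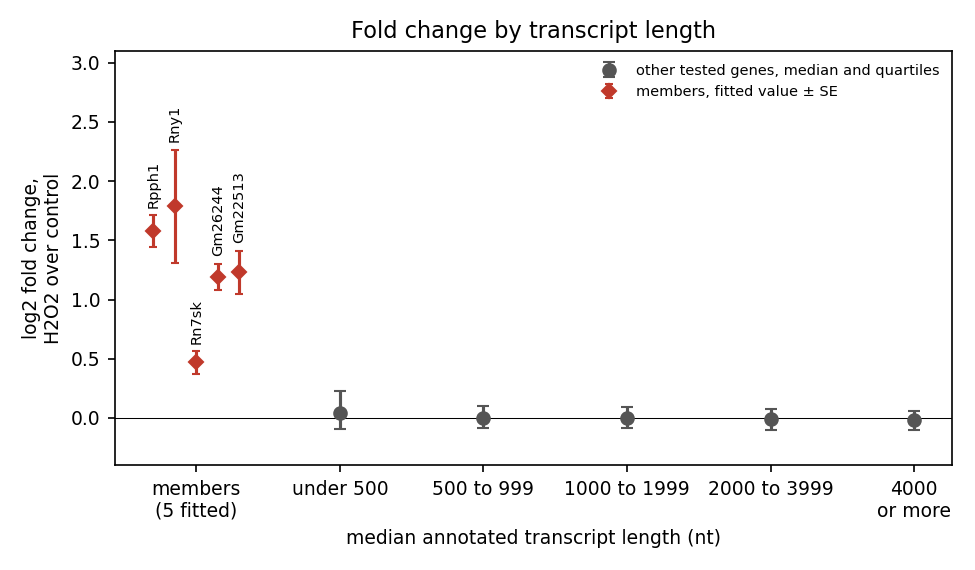
Log2 fold change, H2O2 over control (vertical axis), of the 5 fitted members (diamonds with SE bars) and of the other tested genes by class of transcript length (circles are medians, bars reach the quartiles). The medians run from 0.044 under 500 bases to -0.018 at 4000 bases or more, and the members, chosen on this contrast, lie between 0.47 and 1.79.

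The genes whose pattern over the 6 libraries was most like the mean of the fitted members were Nrep (Pearson's r = 0.998), the ribosomal protein gene Rps21 (0.997), Fau (0.996), which encodes a fusion of a ubiquitin-like protein with a ribosomal protein, Tmed3 (0.995) and Msrb3 (0.995), a reductase of oxidised methionine. They were taken from the 8280 genes whose mean log2 CPM reached 4, by correlation of log2 CPM with the members' mean standardised log2 CPM. The 6 points share the split into groups, so a high value is easily reached. The log2 fold changes of the 5 genes ran from 0.13 (Msrb3) to 0.49 (Rps21). Genes picked in this way had to differ between the groups, so their fold changes and calls are a description and no test. Msrb3 was not called without control replicate 2 (adjusted p = 0.059).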

How the data were processed

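The deposited tables give whole-number read counts per gene symbol, 1 per library. The submitters' processing notes name STAR 2.5.3, HTSeq, cutadapt, bcl2fastq 2.17.1.14 and DESeq2, and the mm10 build; the annotation and the strand setting are not given in the sources used here, so whether reads of overlapping genes on opposite strands were separated is not known. HTSeq's summary classes, 19.1% to 20.0% of counted reads, were left out. Of 33006 genes, 12924 passed edgeR's filterByExpr and were tested with edgeR 4.0.16 (limma 3.58.1, R 4.3.3), by the quasi-likelihood test with TMM factors, treatment as the only term and Benjamini-Hochberg adjustment at 0.05. CPM are counts scaled with TMM factors. Alternatives were other scaling factors, DESeq2 1.42.0, limma-voom, other filters, the replicate number as a block and leaving out each library. The fit was tested on simulated data. Transcript lengths, the median over a gene's GENCODE M21 transcripts, covered 94.6% of tested genes.

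The members and lists were chosen with earlier results of these data known. Named were all members, up to 4 passing genes of each list with the smallest p (6 for other small RNAs), neighbours, and the 5 genes of most like pattern. Replicates were not copies of each other (chi-square per degree of freedom 1.62 to 11.0). The high values were those of H2O2 replicate 3 with replicates 1 (8.61) and 2 (11.0), and the other pairs of replicates had 1.62 to 2.86.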

Additional observations from a re-analysis of the deposited data

How the results depend on the processing

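The fitted values of the 5 members moved by less than 1 SD between replicates under all 14 alternatives in which they could be fitted. Leaving out 1 of 3 libraries is bound to move a mean log2 value by less than that SD. In those fits the small shift is therefore no sign of stability. When 1 library was left out, log2 fold changes were 0.35 to 0.63 for Rn7sk and 1.05 to 1.31 for Gm26244. They were 0.99 to 1.503 for Gm22513, 1.49 to 1.67 for Rpph1 and 1.44 to 2.166 for Rny1. In the same fits the ratio of summed counts was 3.03 to 4.21 for Rny3 and 1.75 to 2.04 for the other near copies of Rnu1a1, alternatives chosen after the data were seen. The low counts of Rny1, Rny3, Rmrp and Terc limit the precision of their values.

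Of all genes, 893 to 1187 rose and 844 (without H2O2 replicate 1) to 1303 fell when 1 library was left out. In those fits the rises and falls were 1 and 0 to 2 for RNase P and MRP proteins, 0 to 1 and 2 to 5 for the 7SK list, 0 to 3 and 3 to 5 for telomerase and shelterin, 2 and 3 to 6 for polymerase III, 2 to 4 and 2 to 5 for 3′ end processing, and 0 to 2 and 1 to 2 for other small RNA genes. DESeq2's test gave 0 rises in the 7SK list, 3 falls for telomerase and shelterin, 3 falls for 3′ end processing, and 0 rises and 1 fall among the 2 other small RNA genes to which it gave an adjusted p. Upper-quartile factors and no filter each gave 3 falls for 3′ end processing. For other small RNA genes, no filter gave 7 rises and 6 falls and the stricter filter 1 and 1. The cause of these shifts was not tested. Among the named genes, the sign of values near 0 changed for Parp2 (-0.030 to 0.021), Arhgef39 (-0.079 to 0.041) and Rock1 (-0.020 to 0.043) when 1 library was left out.

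Same-numbered libraries did not deviate together over the tested genes (correlations of 0.0022, 0.030 and -0.026), so no pairing by number was seen. These deviations also carry counting noise, so the values cannot show that the libraries were unpaired. With the replicate number as a block, 1294 genes rose and 1444 fell, in place of 1254 and 1395, and of the named genes only Gm24924 lost its call.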
